A study of Triticum aestivum with 58 samples.

Results

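SNAC1 and TaNAC69 are NAC transcription factors of bread wheat (Triticum aestivum), and each is present as an A, a B and a D homoeologue. The 6 genes were taken by the gene IDs that the study's list of root system architecture genes gives for names beginning with SNAC1 or TaNAC69, and they are 6 of the 120744 genes counted. They are SNAC1_6A (TraesCS6A02G057400), SNAC1_6B (TraesCS6B02G075200), SNAC1_6D (TraesCS6D02G059300), TaNAC69_5A (TraesCS5A02G143200), TaNAC69_5B (TraesCS5B02G142100) and TaNAC69_5D (TraesCS5D02G148800), where 6A, 5B and so on are the chromosomes. Expression was measured by RNA-seq in leaf and root tissue of untreated seedlings of spring wheat cultivars, grown in peat moss under optimum conditions and sampled at the seedling stage. The main comparisons used the 24 cultivars of the study's panel, all released in Pakistan, with 66 leaf and 69 root libraries. A further 6 cultivars (Gabo, Hope, S-24, Sonalika, TJ-83 and Zincol-2016) had 16 leaf and 12 root libraries.

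NAC factors are a plant-specific family named after NAM, ATAF and CUC, and they bind DNA through a conserved domain near their amino terminus. SNAC1 is known from rice as a stress-responsive factor that is induced in guard cells and raises drought tolerance when it is overexpressed. TaNAC69 of wheat is a drought-responsive member of the same family and has been studied for its expression in roots. Bread wheat is hexaploid, so that the transcript output of one ancestral gene is divided over 3 homoeologues on the A, B and D subgenomes.

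Counted reads ranged from 8120220 to 10117977 per leaf library and from 8421545 to 11212584 per root library. Levels are given in TPM, a read count divided by gene length and scaled to the same sum in every library. Tissue labels were compared with markers that were chosen with earlier results of these data known, so that this is not an independent check. From the same data, the paper had reported no leaf expression of EXPB1, EXPA8 and COW1, and named the Ppd homoeologues as exceptions in root. The 3 PpD genes, which served as leaf markers, summed to between 11.5 and 99.6 TPM in leaf and to at most 1.95 TPM in root. Of 15 genes used as root markers, 8 had no reads in any leaf library, among them all EXPB1 and COW1 homoeologues, and a further 4 did not exceed 0.235 TPM there. The other 3 were the RTH3 homoeologues, which made up 99.7% of the summed root marker level in leaf. That sum ranged from 0.105 to 50.1 TPM in leaf (median 14.99) and from 33.0 to 237.9 TPM in root (median 108.6). The EXPB1 and COW1 homoeologues were low in root as well, with medians of at most 0.659 TPM, so that their absence from leaf says little. EXPA8_3B, also without reads in leaf, had a median of 6.22 TPM in root.

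Cultivar labels could not be taken at face value. Libraries were compared on 227 on/off genes, which differ between libraries in being clearly expressed or clearly silent, and a match was set at 97% of these genes. Of the 66 leaf libraries, only 3 had a match among roots of the same label, 47 had one among roots of different labels and 16 had no match in root. Between leaf libraries of the same label, 6 of 65 had a match. A match with a second root library under the same label was found for 41 of the 69 root libraries, but 20 of these 41 also matched a root library of a different label. The levels of single leaf and root libraries over the whole panel do not depend on the cultivar names. The tissue test does in part, since it sums counts by label, so that its units, SE and p rest on the names. Every leaf value given below for a cultivar is that of the libraries labelled with its name.

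SNAC1 transcripts were higher in leaf than in root, and TaNAC69 transcripts were lower in leaf than in root, for each of the 3 homoeologues. The SNAC1 homoeologues together reached 173.1 ± 88.6 TPM in leaf, against 52.4 ± 19.1 TPM in root (mean ± SD over the means of 24 cultivars). The TaNAC69 homoeologues together reached 3.90 ± 5.45 TPM in leaf, against 43.1 ± 17.1 TPM in root. Both families were therefore measured at similar levels in root and at very different levels in leaf.

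In single libraries, SNAC1_6A ranged from 3.80 to 276.0 TPM in leaf (median 93.1) and from 4.67 to 64.6 TPM in root (median 18.7). SNAC1_6B ranged from 1.91 to 184.6 TPM in leaf (median 54.9) and from 10.4 to 45.6 TPM in root (median 22.1). SNAC1_6D ranged from 1.52 to 81.1 TPM in leaf (median 24.6) and from 2.40 to 24.8 TPM in root (median 7.77). The leaf and root ranges overlapped for all 3 genes, with at least 1 leaf library below the lowest root library. For the family sum, 45 of the 66 leaf libraries lay above the highest root library. Cultivar means of SNAC1_6A were 88.2 ± 44.3 TPM in leaf and 20.8 ± 10.2 TPM in root, as mean ± SD over 24 cultivars. Those of SNAC1_6B were 60.2 ± 33.7 TPM in leaf and 22.99 ± 7.15 TPM in root, and those of SNAC1_6D were 24.7 ± 12.3 TPM in leaf and 8.59 ± 3.92 TPM in root.

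**Figure D1:**
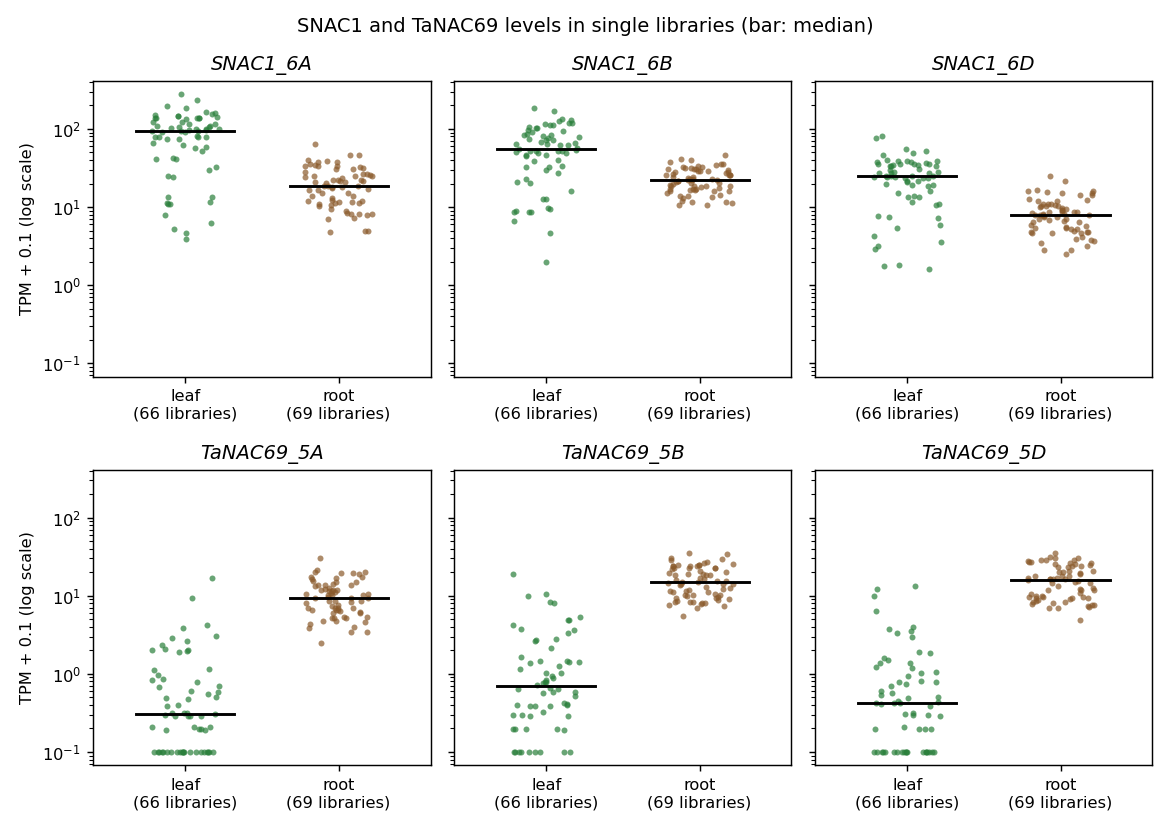
Level of each of the 6 genes as TPM + 0.1 on a log scale in every panel library, with 66 leaf libraries left of 69 root libraries, 1 point per library and a bar at the median. The SNAC1 homoeologues lie mostly higher in leaf, with leaf medians of 93.1, 54.9 and 24.6 TPM for the A, B and D copies, whereas the TaNAC69 homoeologues lie near or at 0 in most leaf libraries and between 2.39 and 35.5 TPM in root.

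TaNAC69_5A had no reads in 21 of the 66 leaf libraries and at most 16.7 TPM (median 0.202), against 2.39 to 30.005 TPM in root (median 9.37). TaNAC69_5B had no reads in 9 leaf libraries and at most 18.7 TPM (median 0.593), against 5.47 to 34.9 TPM in root (median 15.001). TaNAC69_5D had no reads in 19 leaf libraries and at most 13.2 TPM (median 0.326), against 4.74 to 35.5 TPM in root (median 15.9). For the family sum, 63 of the 66 leaf libraries lay below the lowest root library. A leaf library without reads still allows a level of about 3 reads, which corresponded to a median of 0.295 TPM for TaNAC69_5A, 0.292 TPM for TaNAC69_5B and 0.299 TPM for TaNAC69_5D and covers counting error only. At this depth, 39, 26 and 36 leaf libraries held 3 or fewer reads of the A, B and D copies. A mean of at least 1 TPM in leaf was reached by 5 cultivars for TaNAC69_5A, 11 for TaNAC69_5B and 9 for TaNAC69_5D.

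The difference between tissues was tested on counts summed per cultivar, with 24 samples per tissue, in a fit over 62747 genes with edgeR's quasi-likelihood test and Benjamini-Hochberg adjustment, at a threshold of 0.1 on the adjusted p. All 6 genes were called, as were 87.9% of all genes tested. All 3 SNAC1 homoeologues were called higher in leaf, a call that 40.3% of all genes tested received. All 3 TaNAC69 homoeologues were called lower in leaf, that is, higher in root, a call that 47.6% of all genes tested received. Calls were thus common in this contrast, and the sizes of the changes say more than their number. Each SE given for a fold change or a year slope is its absolute value divided by the square root of the test's F. Such an SE is no measure of spread separate from the p. SNAC1_6A had a log2 fold change of 3.12 ± 0.27 (SE, adjusted p = 2.88e-15), SNAC1_6B of 2.43 ± 0.22 (adjusted p = 2.69e-14) and SNAC1_6D of 2.57 ± 0.23 (adjusted p = 2.68e-14). TaNAC69_5A fell by 2.52 ± 0.39 on the log2 scale (SE, adjusted p = 1e-07 in edgeR's test), TaNAC69_5B by 2.27 ± 0.36 (adjusted p = 1.28e-07) and TaNAC69_5D by 2.83 ± 0.40 (adjusted p = 1.03e-08). The median of all genes tested was -0.14.

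These fold changes depend on how the tissues are scaled, since TMM assumes that most genes do not differ. With library totals in place of TMM the median of all genes was -1.12, and SNAC1_6A, SNAC1_6B and SNAC1_6D were at 2.16, 1.47 and 1.61, while TaNAC69_5A, TaNAC69_5B and TaNAC69_5D were at -3.36, -3.15 and -3.69. The directions of the 6 genes held under every scaling tried. The share of all calls that were higher in leaf was 45.9% with TMM, 24.3% with library totals, 22.7% with limma on log2(TPM + 1) and 22.6% with limma on log2(TPM + 0.1). In bulk tissue, fewer cells of an expressing type and less transcript per cell cannot be told apart.

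SNAC1 was higher in leaf in most cultivars but not in all. The mean family sum was higher in leaf in 21 of 24 cultivars, and in 16 of them every leaf library lay above every root library. The highest ratios of leaf to root belonged to C-518 (8.14), Barani (7.44) and Chakwal-86 (6.99). Leaf and root libraries overlapped in 6 cultivars, and in Pak-81 and Inquilab-91 every leaf library lay below every root library. Pak-81 had 19.3 and 11.4 TPM in its leaf libraries and a mean of 15.3 TPM in leaf, against 61.1 TPM in root. Inquilab-91 had 22.3, 23.9 and 33.2 TPM in its leaf libraries and a mean of 26.5 TPM in leaf, against 64.9 TPM in root. Dirk was also lower in leaf, with 24.7 and 17.2 TPM in its leaf libraries and a mean of 20.9 TPM, against 31.1 TPM in root.

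None of these 7 low leaf libraries matched a root library of its own name on the on/off genes, and all 7 matched root libraries of other names. The summed root markers, nearly all from RTH3, were at 0.105 to 1.24 TPM in these 7 libraries, against a median of 17.1 TPM in the other 59 leaf libraries. Some other libraries, named here as exceptions, did not follow this pattern. NARC-2009 replicate 2, with the lowest SNAC1 sum of all (7.43 TPM), had root markers at 17.1 TPM, Pasban-90 replicate 1 (15.9 TPM) had them at 5.09 TPM, and Parwaz-94 replicate 3 had a SNAC1 sum of 157.4 TPM with root markers at 1.46 TPM. The PpD leaf markers were at 23.2 to 82.1 TPM in the 7 libraries, against a median of 51.0 TPM in the other leaf libraries. Over all 66 leaf libraries, the SNAC1 sum went with the root marker sum (Pearson's r = 0.79, Spearman's rho = 0.79, a description over libraries on the log2 scale) and hardly with the leaf marker sum (r = -0.09). The EXPB1 and COW1 root markers stayed at 0 throughout leaf, but their medians in root were also at most 0.659 TPM. The part of the root markers in the SNAC1 levels was not tested. For TaNAC69 in leaf, r was 0.38 with the root markers and -0.22 with the leaf markers.

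TaNAC69 was lower in leaf than in root in 24 of 24 cultivars. In 22 of them every leaf library lay below every root library. The exceptions were Maxipak-65, with a mean of 18.3 TPM in leaf against 48.4 TPM in root, and Pasban-90, with 21.2 TPM in leaf against 43.4 TPM in root. In Maxipak-65, the single leaf libraries had 3.94, 39.8 and 11.1 TPM. In Pasban-90, they had 39.9, 3.18 and 20.6 TPM, so that in both cultivars one library carried much of the mean.

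**Figure D2:**
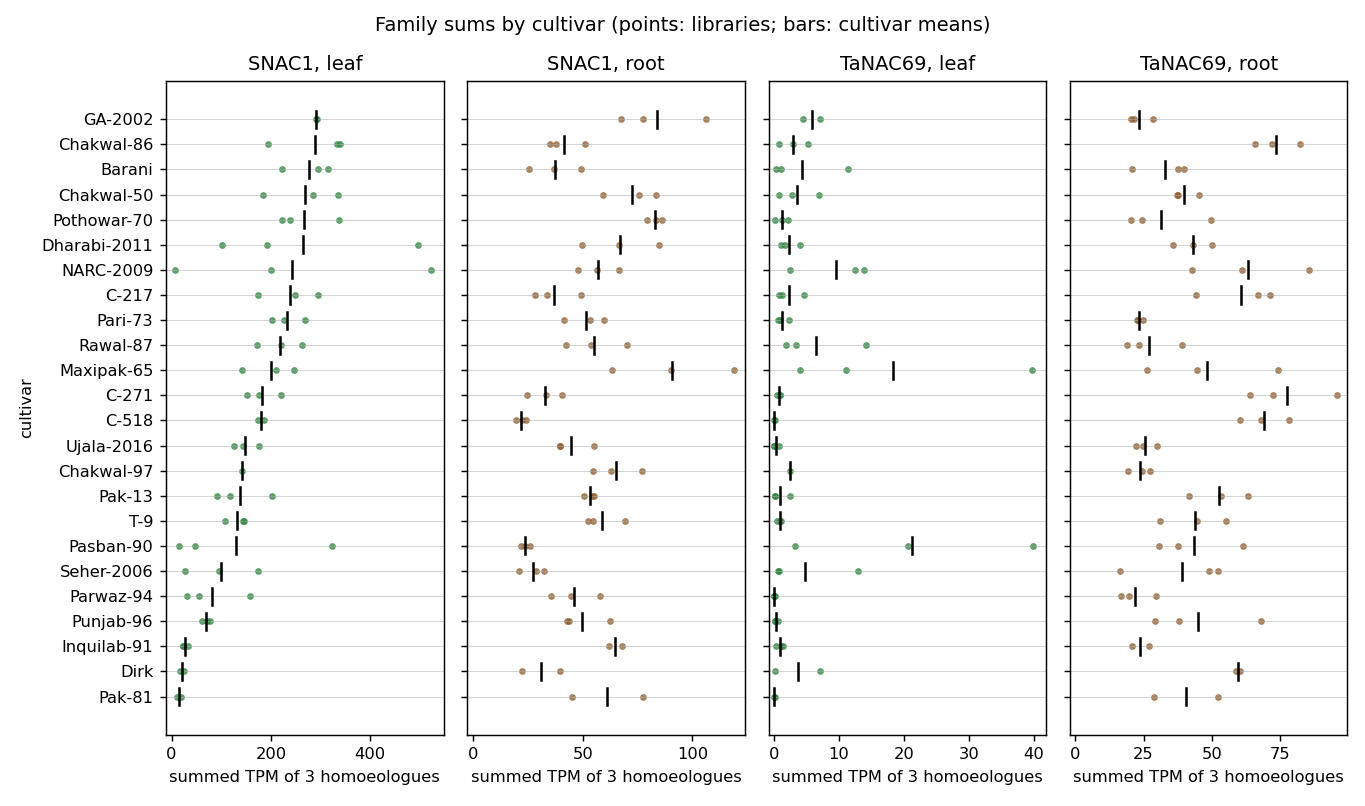
Summed TPM of the 3 homoeologues on linear axes that differ in range between the 4 panels (SNAC1 in leaf and root, TaNAC69 in leaf and root), by cultivar in the order of SNAC1 in leaf, with points for single libraries and bars for cultivar means. For SNAC1 the leaf mean lies above the root mean in 21 of 24 cultivars, with Pak-81, Inquilab-91 and Dirk as exceptions, and for TaNAC69 it lies below in 24 of 24.

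Leaf libraries that share a cultivar label could differ widely in SNAC1. NARC-2009 held both extremes of the panel, with 200.9, 7.43 and 522.1 TPM for the family sum in its 3 leaf libraries. SNAC1_6A differed 72.6-fold between the lowest and the highest of these libraries, at 3.80 and 276.0 TPM. Within a cultivar, the SD of the log2 family sum was 1.01 in leaf and 0.317 in root for SNAC1, and 1.51 in leaf and 0.452 in root for TaNAC69. The median log2 range within a cultivar was 2.49 in leaf and 0.641 in root for TaNAC69, so that root libraries of one label were much closer to each other. For SNAC1 this median was 0.622 in leaf and 0.547 in root, so that a typical label was about as close in leaf as in root. The largest SNAC1 range in leaf was that of NARC-2009, at 6.12.

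Ordered by level, most neighbouring cultivars differed by less than the spread within a cultivar. Steps between 24 sorted means are small in any case, so that this bears on single ranks and does not show that cultivars were alike. For the SNAC1 sum in root, cultivars held 82.4% of the sum of squares. The cultivars named below are ordered by mean TPM, whereas neighbours were compared in the order of mean log2 levels. For the SNAC1 sum in leaf, GA-2002 (291.7 TPM), Chakwal-86 (288.7 TPM) and Barani (277.3 TPM) came first and Inquilab-91 (26.5 TPM), Dirk (20.9 TPM) and Pak-81 (15.3 TPM) last. Of the 23 pairs of neighbours in the log2 order, 22 differed by less than the SD within a cultivar. The exception was the step above Inquilab-91, Dirk and Pak-81, the 3 cultivars that were lower in leaf than in root. For the SNAC1 sum in root, Maxipak-65 (90.9 TPM), GA-2002 (83.7 TPM) and Pothowar-70 (83.04 TPM) came first and Seher-2006 (27.3 TPM), Pasban-90 (23.9 TPM) and C-518 (22.1 TPM) last, and all 23 pairs of neighbours were closer than that SD. By label, GA-2002 was thus near the top in both tissues, whereas C-518, with the highest ratio of leaf to root, had the lowest level in root. No leaf library of either label matched a root library of that label, so that leaf and root values may not belong to the same cultivar. For the TaNAC69 sum in root, C-271 (77.5 TPM), Chakwal-86 (73.5 TPM) and C-518 (69.1 TPM) came first and GA-2002 (23.5 TPM), Pari-73 (23.4 TPM) and Parwaz-94 (21.95 TPM) last, again with all 23 pairs of neighbours closer than the SD. GA-2002 and C-518 thus stood at opposite ends of the root orders of the 2 families.

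The comparison of cultivars asks whether levels vary among cultivars by more than among their replicate libraries. In leaf, all 6 genes were called in edgeR's quasi-likelihood test over single libraries, as were 27.2% of the 56665 genes tested. F ranged from 2.53 for SNAC1_6A (adjusted p = 0.0273 by edgeR) to 4.40 for TaNAC69_5B (adjusted p = 0.000342 by edgeR). These calls changed when a replicate number was left out. Without the libraries numbered 1, 3 of the 6 genes were called, and without those numbered 3 only TaNAC69_5B was. Given the labels of the leaf libraries, the leaf differences are differences among sets of libraries that share a label.

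In root, all 6 genes were called as well, as were 83.6% of the 64317 genes tested. SNAC1_6A had the highest F of the 6 (F = 8.49, adjusted p = 3.07e-09 by edgeR with Benjamini-Hochberg adjustment) and TaNAC69_5A the lowest (F = 4.13, adjusted p = 4.97e-05). With only the root libraries that matched their name, F was 9.40, 7.16 and 8.92 for the A, B and D copies of SNAC1 and 5.63, 10.3 and 10.9 for those of TaNAC69, and all 6 were again called. Since 20 of the libraries kept also matched a different label, this choice of libraries does not settle the labels. It also keeps libraries that agree under a label in these same data. Their common dispersion was 0.0359, against 0.0714 with all root libraries.

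The 3 homoeologues did not contribute equally, and the division of SNAC1 differed between tissues. SNAC1_6A made up 50.3 ± 5.23% of the summed SNAC1 TPM in leaf, against 38.3 ± 8.62% in root (SD, n = 24 cultivars). This share was higher in leaf in 21 of 24 cultivars, by 11.99 percentage points on average (two-sided permutation test exchanging leaf and root within cultivars, p = 3e-05, adjusted over 6 shares 9e-05). SNAC1_6B made up 34.9 ± 4.55% in leaf, against 45.4 ± 7.13% in root, a difference of -10.4 points that was positive in only 2 of 24 cultivars (permutation p = 1e-05, the smallest that the resamples can give, adjusted 6e-05). The share of SNAC1_6D was 14.8% in leaf and 16.3% in root and was not called (permutation test, adjusted p = 0.125). These tests pair leaf and root by cultivar label, which the leaf labels leave in doubt. When tissues were permuted over the cultivar values without pairing, an alternative added after the data were seen, the adjusted p was 6e-05 for SNAC1_6A and for SNAC1_6B, and 0.0994 for SNAC1_6D, which then passed the threshold of 0.1. The A copy was therefore the highest in leaf and the B copy the highest in root.

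The order of the SNAC1 copies depends on their annotated lengths, which are 873 bp for SNAC1_6A, 1362 bp for SNAC1_6B and 1510 bp for SNAC1_6D. Of the 91001 SNAC1 reads in leaf, 39.0% were counted on SNAC1_6A, 41.9% on SNAC1_6B and 19.1% on SNAC1_6D. Of the 29370 SNAC1 reads in root, 29.1% were counted on SNAC1_6A, 50.2% on SNAC1_6B and 20.6% on SNAC1_6D. In reads, which are not corrected for length, the A copy thus did not exceed the B copy in leaf, but its share was again larger in leaf than in root. Short reads of homoeologues that are nearly identical can be divided among the copies by the aligner, and how the counting treated such reads is not given in the sources used here.

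**Figure D3:**
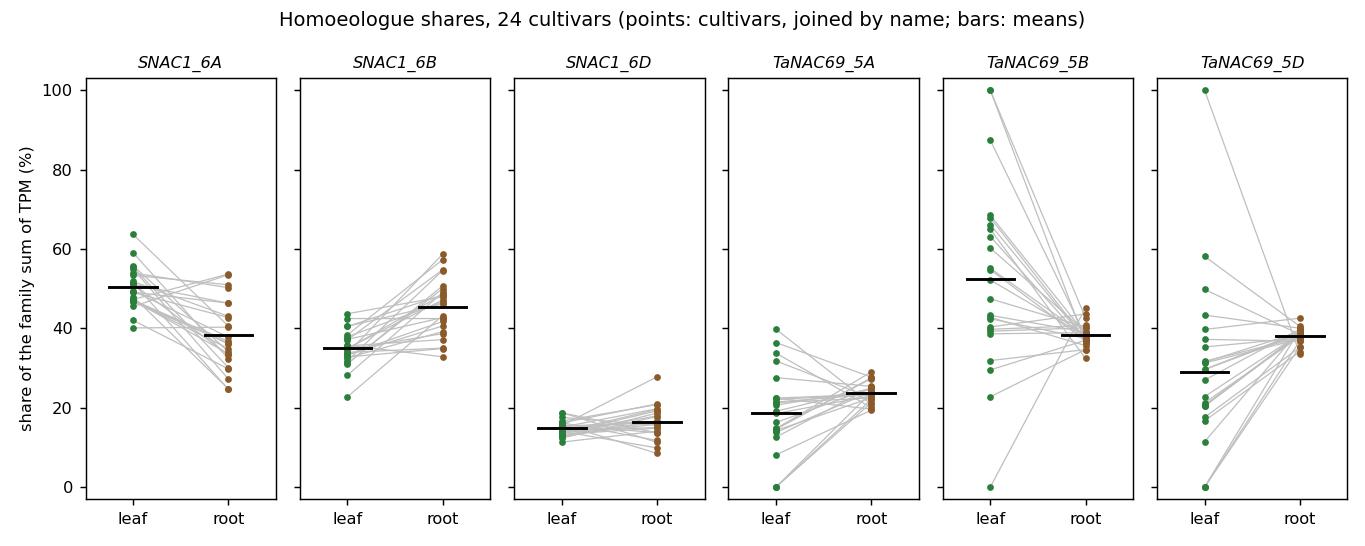
Share of each homoeologue in the summed TPM of its family, in percent, with 1 point per panel cultivar, leaf left of root, grey lines joining the same name and bars at the means. The share of SNAC1_6A is higher in leaf (50.3%) than in root (38.3%), that of SNAC1_6B lower in leaf (34.9%) than in root (45.4%), and the TaNAC69 shares scatter widely in leaf, where between 1 and 617 reads were counted per cultivar.

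The TaNAC69 shares varied widely in leaf, where between 1 and 617 reads of the 3 copies were counted per cultivar, and little in root. TaNAC69_5A made up 18.6 ± 10.6% in leaf and 23.7 ± 2.57% in root (SD, n = 24), TaNAC69_5B 52.4 ± 23.2% in leaf and 38.3 ± 2.89% in root, and TaNAC69_5D 28.97 ± 21.1% in leaf and 38.1 ± 2.05% in root. TaNAC69_5B had a larger share in leaf by 14.2 points (permutation test, adjusted p = 0.0143), TaNAC69_5D a smaller one with a difference of -9.11 points (adjusted p = 0.054) and TaNAC69_5A a smaller one with a difference of -5.07 points (adjusted p = 0.0507). In the 14 cultivars with at least 30 leaf reads of the family, a limit set after the data were seen, the share of TaNAC69_5B was 48.5% in leaf and 38.1% in root (adjusted p = 0.0169, permutation test). In the same cultivars TaNAC69_5D was at 28.1% in leaf and 38.1% in root (adjusted p = 0.00446, permutation test), and the difference for TaNAC69_5A was -0.373 points (adjusted p = 0.891). The directions of the B and D copies thus held with this limit, but not in every cultivar with many reads. Among these 14 cultivars, the share of TaNAC69_5B was higher in leaf in 9, and that of TaNAC69_5D was higher in leaf in 1.

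Cultivars differed in root in how SNAC1 was divided over the 3 copies, a comparison added after the data were seen. For SNAC1_6A, cultivar labels accounted for 72.4% of the sum of squares of the share over root libraries (F = 5.13, permutation of labels over libraries, adjusted over 12 tests p = 8e-05). SNAC1_6B had F = 5.47 (permutation test, adjusted p = 6e-05) and SNAC1_6D had F = 4.28 (adjusted p = 6e-05). With the 41 root libraries that matched their name, from 16 cultivars, F was 10.005, 9.46 and 7.57 for the A, B and D copies (permutation test, adjusted p = 2e-05 for each). The shares thus differed among cultivars by more than among libraries of a label. The 41 libraries were kept for their agreement under a label in these same data, so that their higher F is not independent of that choice.

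Cultivar values in this paragraph are means of the shares of single libraries, not shares of mean TPM as in the tissue comparison. The root share of SNAC1_6A was highest in Inquilab-91 (53.4%), Parwaz-94 (52.8%), Chakwal-50 (51.3%) and T-9 (49.7%). It was lowest in Pasban-90 (27.1%), Ujala-2016 (25.01%) and Barani (23.5%). Single root libraries of Inquilab-91 were at 55.2% and 51.7%, whereas those of Barani were at 30.3%, 18.2% and 21.9%, without overlap. The share of SNAC1_6B was highest in Pasban-90 (58.6%) and Barani (58.5%), and that of SNAC1_6D was highest in Pak-81 (26.2%) and lowest in Pak-13 (8.53%). The root libraries of Ujala-2016 and Pak-81 and the Barani library at 18.2% had no match under their name. In Chakwal-50 the root libraries had SNAC1_6A shares of 55.8%, 57.5% and 40.5%, and the one at 40.5% did not match its name. In NARC-2009 they had 56.1%, 33.6% and 52.5%, and the one at 33.6% did not match its name either.

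**Figure D4:**
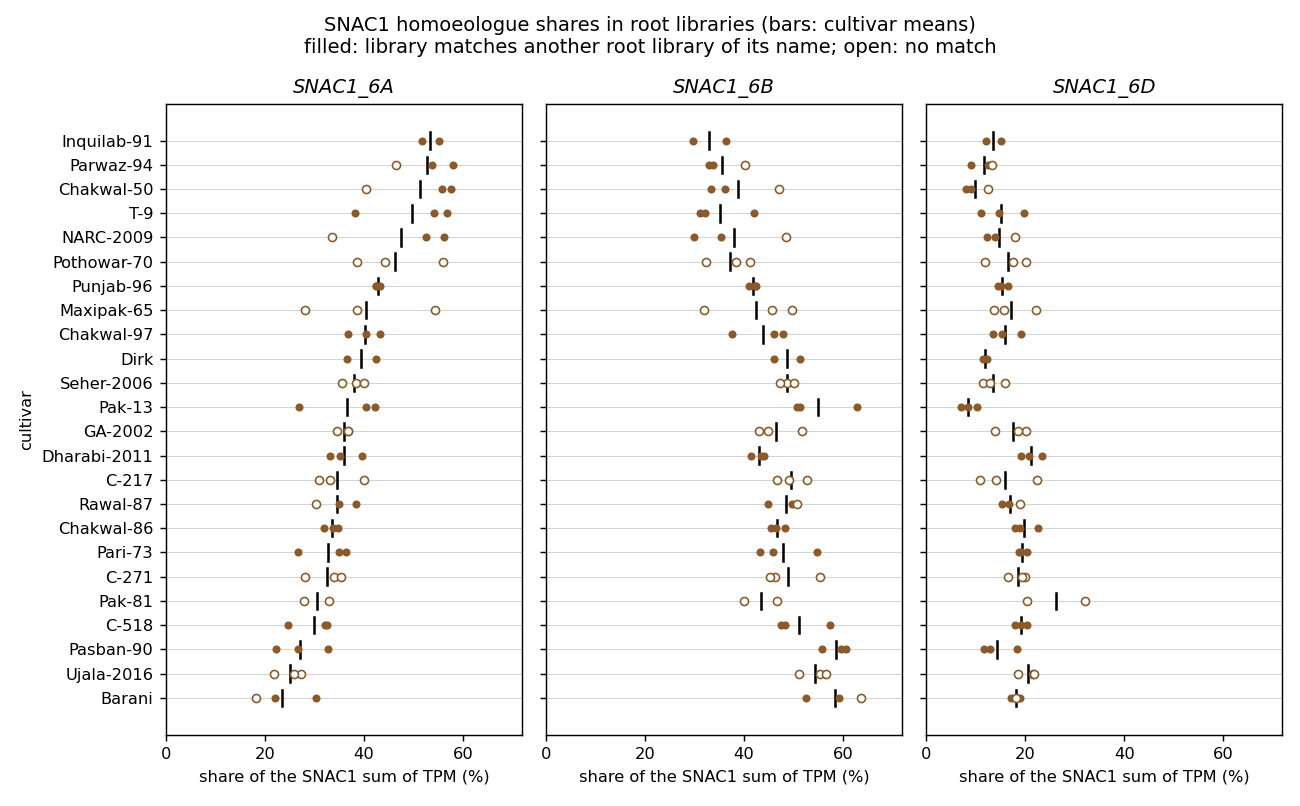
Share of SNAC1_6A, SNAC1_6B and SNAC1_6D in the summed SNAC1 TPM of every root library, in percent, by cultivar, with bars at cultivar means, filled points for libraries that match a second root library under their name and open points for the others. The SNAC1_6A share runs from 53.4% in Inquilab-91 to 23.5% in Barani as cultivar means.

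The TaNAC69 shares in root had lower F, at 1.81 for TaNAC69_5A, 1.90 for TaNAC69_5B and 1.30 for TaNAC69_5D (permutation test, adjusted p = 0.0847, 0.0804 and 0.24). The A and B copies thus passed the threshold of 0.1 and the D copy did not. With the libraries that matched their name, none passed, with adjusted p values of 0.751, 0.751 and 0.793 in the same permutation test. In leaf, TaNAC69_5B was the only 1 of the 6 shares that was called between cultivar labels (permutation test, adjusted p = 0.0258). That call was lost without the libraries numbered 1 (adjusted p = 0.392, permutation test) and without those numbered 2 (adjusted p = 0.211), where SNAC1_6D (0.0878) and TaNAC69_5D (0.0292) were called instead.

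Large stretches of chromosome 6B stood apart in some libraries, and the SNAC1_6B values of these libraries belong beside that. Chakwal-97 has only 1 leaf library, in which genes on chromosome 6B were at a median log2 ratio of -1.08 to the median of the leaf libraries, and the 50 expressed genes around SNAC1_6B were at -0.99. SNAC1_6B itself was at -0.76 there. Among cultivars, its shares of SNAC1_6B (22.7%) and SNAC1_6A (63.7%) were the lowest and the highest in leaf. In root replicates 1 and 2 of Chakwal-86, the same window was at -0.61 and -0.56. The SNAC1_6B share was not low there, at 48.3% and 45.5%, against 46.4% in replicate 3 and 45.4% on average in root.

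The panel spans cultivars of different release years, and the year comparison asks whether levels changed along the breeding history. None of the 6 genes was called in leaf, where 0.655% of 59228 genes tested were, and none was called in root, where 2.50% of 67932 genes tested were (edgeR's quasi-likelihood test, Benjamini-Hochberg adjustment). Release years were assigned to leaf libraries by labels that are in doubt, so that the leaf result does not show that levels stayed the same. No gene of the 6 had an unadjusted p under 0.05 in either tissue, with edgeR or with DESeq2. In leaf the slopes per decade on the log2 scale were between 0.00 ± 0.07 for SNAC1_6A and 0.17 ± 0.19 for TaNAC69_5D (SE). In root they were 0.03 ± 0.06 for SNAC1_6A, 0.06 ± 0.03 for SNAC1_6B and 0.03 ± 0.05 for SNAC1_6D. They were -0.08 ± 0.04 for TaNAC69_5A, -0.06 ± 0.04 for TaNAC69_5B and -0.08 ± 0.04 for TaNAC69_5D, and the smallest p of the 6 was that of TaNAC69_5A (adjusted p = 0.432 by edgeR). Root data were simulated with a smaller spread than that of these samples, whose common dispersion in this fit was 0.193. There, 37 of 100 genes with a slope of 0.1 per decade and 100 of 100 with a slope of 0.2 were recovered. Slopes of the size measured for TaNAC69 in root were thus not reliably detectable even at the smaller spread, and the recovery in these samples was not measured. In simulated leaf data, 16 of 100 genes with a slope of 0.1 and 65 of 100 with a slope of 0.2 were recovered.

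Homoeologues of one family moved together across cultivars. Correlations were computed on cultivar means of log2(TPM + 0.1), with 14 relations in all and permutation p-values adjusted over them. In leaf, Pearson's r between SNAC1 copies was 0.97, 0.98 and 0.98 (Spearman's rho 0.92, 0.93 and 0.95) and between TaNAC69 copies 0.92, 0.94 and 0.90 (rho 0.91, 0.91 and 0.87), for the pairs A with B, A with D and B with D. In root, r was 0.74, 0.65 and 0.81 for SNAC1 (rho 0.69, 0.60 and 0.77) and 0.92, 0.95 and 0.97 for TaNAC69 (rho 0.90, 0.97 and 0.93). The adjusted permutation p of r ranged from 1.4e-05 to 0.000758 over these 12 relations. Without the 2 farthest cultivars, r ranged from 0.53 for SNAC1_6A with SNAC1_6D in root to 0.97. The weakest relations were thus those among the SNAC1 copies in root.

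The correlation between the sums of the 2 families had a positive sign in leaf and a negative sign in root. In leaf, the family sums had r = 0.39 (permutation p = 0.0585, adjusted 0.0585) and rho = 0.40 (p = 0.0517), and r = 0.38 without the 2 farthest cultivars (p = 0.0817). In root, they had r = -0.42 (permutation p = 0.0397, adjusted 0.0427) and rho = -0.38 (p = 0.0651), and r = -0.36 without the 2 farthest cultivars (p = 0.1). Both relations were weak. The leaf relation was not called on log2(TPM + 1) (r = 0.33, permutation test, adjusted p = 0.11), over single libraries (r = 0.19, adjusted p = 0.138) or without the libraries numbered 2 (r = 0.15, adjusted p = 0.506). The root relation was not called without the libraries numbered 1 (r = -0.32, permutation test, adjusted p = 0.131) or 3 (r = -0.32, adjusted p = 0.123). A test of the difference between the tissues was not run.

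**Figure D5:**
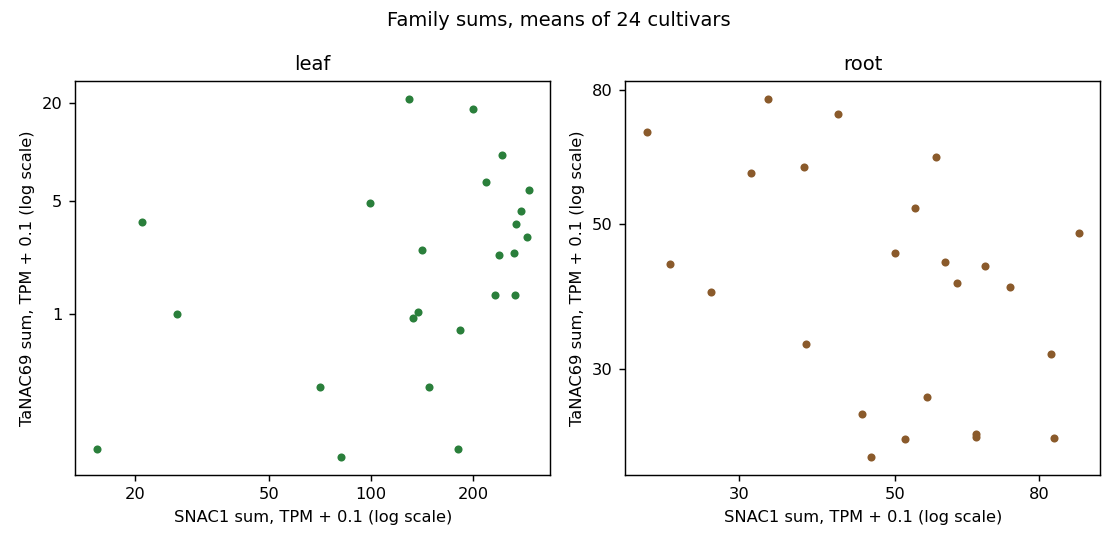
Summed TaNAC69 TPM + 0.1 against summed SNAC1 TPM + 0.1, both on log scales whose ranges differ between the panels, with 1 point per panel cultivar (mean over libraries), for leaf on the left and root on the right. The points scatter widely in both tissues (Pearson's r = 0.39 in leaf and -0.42 in root).

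The genes whose pattern was most like each family were sought among genes with a median of at least 1 TPM, over single libraries on log2(TPM + 0.1), as a description. For SNAC1, TraesCS5B02G230800 came first in both tissues, with r = 0.94 over 66 leaf libraries and r = 0.81 over 69 root libraries. This gene ranged from 0.186 to 124.4 TPM in leaf and from 4.09 to 48.5 TPM in root. In leaf, TraesCS5D02G235600 and TraesCS6D02G211100 followed (r = 0.93 each), and 20 of 40371 genes exceeded 0.9. In root, TraesCS5B02G231000 (r = 0.77) and TraesCS3D02G339600 (r = 0.76) followed.

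For TaNAC69, the leading genes differed between the tissues. In leaf they were TraesCS6A02G181500 and TraesCS6B02G210400 (r = 0.87 each) and TraesCS4B02G071500 (r = 0.86). In root they were TraesCS5A02G550700, TraesCS2B02G174500 and TraesCS1D02G220900 (r = 0.76 each). These IDs carry no names in the files used. The libraries of a tissue share depth, growth conditions and, in leaf, doubtful labels.

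Among the other 24 transcriptional regulators of root architecture in the study's list, 15 passed the filter on low counts and 12 were called between tissues (edgeR's quasi-likelihood test). Of these, 3 were higher in leaf and 9 lower in leaf, and the median log2 fold change of the 15 was -1.72, against -0.14 for all genes tested. The 3 that were higher in leaf were the homoeologues of ARF4, an auxin response factor, with log2 fold changes up to 1.28 for ARF4_3D and 0.99 for ARF4_3A. Mean levels of ARF4_3D were 57.4 TPM in leaf and 49.1 TPM in root, but those of ARF4_3A were 44.5 TPM in leaf and 46.8 TPM in root, and its log2 difference was -0.10 with limma on log2(TPM + 1), so that the direction of ARF4_3A changed with the scaling. With library totals in place of TMM, 1 regulator was called higher and 12 lower in leaf. LBD16_4A and LBD16_4D, which belong to the LOB domain factors that act in lateral root formation, had no reads in any of the 66 leaf libraries and medians of 0.995 and 1.34 TPM in root. SNAC1 thus had larger positive log2 fold changes than any of the 15 other regulators tested, and TaNAC69 moved in the direction of most of them.

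The 4 cultivars outside the panel with both tissues gave a further set of values that the tests above did not use. TaNAC69 was lower in leaf in 4 of 4, without overlap of libraries in 3 of them. SNAC1 was higher in leaf in Zincol-2016 (234.0 TPM in leaf against 43.4 TPM in root), Gabo (180.2 TPM in leaf against 98.9 TPM in root) and S-24 (139.8 TPM in leaf against 69.9 TPM in root). In Sonalika, SNAC1 was lower in leaf, at 51.6 TPM against 81.3 TPM in root. Leaf and root libraries of SNAC1 did not overlap in Zincol-2016 and in Gabo, which had only 1 leaf library, and overlapped in S-24 and Sonalika. SNAC1_6D alone was higher in leaf in 2 of the 4, since its level in Gabo was 13.1 TPM in leaf and 14.9 TPM in root.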

How the data were processed

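The authors mapped single-end reads of oligo(dT)-primed libraries to the bread wheat genome with HISAT2 and counted them per gene with featureCounts. The genome build, annotation version and counting options are not given in the sources used here. The deposited counts are whole numbers per gene, without normalization. The deposited TPM values equalled TPM computed from the counts and the deposited gene length (other unit, in bp) in 161 tables, within 0.001. Tables of 2 libraries of Zincol-2016 were incomplete and their TPM was computed from counts. Genes for noncoding RNA held 0.0179% of the counts. According to the series' design, replicates are biological.

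Counts were tested with edgeR 4.0.16 in R 4.3.3 (TMM, filterByExpr, trended dispersion, quasi-likelihood F-test, Benjamini-Hochberg adjustment over all genes tested, threshold 0.1), after a check on simulated data. Leaf and root were compared on counts summed per cultivar (24 per tissue), cultivars on single libraries, and release year as a slope per decade. Shares and correlations used permutation tests with 100000 resamples in Python 3.11.15 (numpy 2.4.6, scipy 1.17.1, pandas 2.3.3), and matplotlib 3.10.9 drew the plots. Alternatives were DESeq2 1.42.0, limma 3.58.1 on log2 TPM, other filters and scalings, blocks and left-out replicate numbers. All 6 genes are named. Other regulators are named where they had the 2 largest changes in a direction, and similar genes where they had the 3 highest correlations. Members and lists were chosen with earlier results of these data known.

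Whether the leaf and root libraries of a cultivar were paired was checked on their deviations from the tissue means. Over the 24 cultivars the correlation was between -0.233 and 0.327 and over 0.1 in 11, so that the counts were fitted without pairs. The share tests exchanged leaf and root within a cultivar label, and were repeated without that pairing.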

Additional observations from a re-analysis of the deposited data

Results flagged for a closer look

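SNAC1 in Pak-81 and Inquilab-91 went against the direction seen in most cultivars, since every leaf library of these cultivars lay below every root library, whereas in 16 cultivars every leaf library lay above. The ratio of leaf to root for the SNAC1 sum was 0.251 in Pak-81 and 0.408 in Inquilab-91. The difference from the other cultivars was not tested. The leaf libraries of both cultivars matched root libraries of other names on the on/off genes, as did most leaf libraries (47 of 66 matched only other names).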

How the results depend on the processing

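The tissue calls of the 6 genes held in all alternatives that tested them. With at least 10 counts in every sample, the TaNAC69 genes were not tested, 3 genes were called and 26965 genes were called in all (55178 as reported). With that filter, 3 members and 6786 genes were called among cultivars in leaf (15440 as reported, and 29674 with all deposited cultivars), and 30289 genes in root (53765 as reported). For release year, in leaf 1239 genes were called with DESeq2, 1023 without a filter and 0 with limma (5382 at an unadjusted p under 0.05; 388 as reported), in root 4114 with DESeq2, 2773 with limma, 507 without T-9 and 546 with name-matched libraries (1701 as reported), and none of the genes called was one of the 6. With name-matched libraries, 3 shares differed between cultivars in root (5 as reported). Leaving out replicate numbers gave 1 to 6 members and 4225 to 7095 genes among cultivars in leaf, 35140 to 42934 genes among cultivars in root, 18 to 536 genes for year in leaf, 565 to 1542 for year in root, and 0 to 2 shares in leaf and 3 to 4 in root. TaNAC69_5A had an unadjusted p for year of 0.0449 in root without T-9 and of 0.0162 without replicate 1. The cultivar as replicate block left 6 of 6 members called between tissues (54780 genes), and the replicate number as block left 6 of 6 called among cultivars in leaf (14965 genes) and 6 of 6 in root (53299 genes). These blocks changed no call of the 6 genes. Shares tested without pairing by label were called for 6 of 6, against 5 with it. Leaf libraries rich in root markers were not left out, since 0 libraries passed the limit of 86.5 TPM. The low TaNAC69 reads in leaf limit its fold changes and shares. Causes of these changes were not tested.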
